A study of Mus musculus with 10 samples.

Results

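The genes described here are 8 regulators of G protein signalling, Rgs1, Rgs2, Rgs3, Rgs10, Rgs14, Rgs16, Rgs18 and Rgs19, taken by symbol from a table of 17658 genes; all 8 were found. Polyadenylated RNA was sequenced from C57BL/6 mouse B cells, taken at 10 weeks of age from spleen and lymph node and enriched by magnetic removal of other cells. The 4 groups were unstimulated Nr4a1+/+ cells (wild type, 1 library), unstimulated Nr4a1-/- cells (knockout, 1 library), and cells of each genotype after 2 hours with anti-IgM at 10 µg/mL, which engages the B cell antigen receptor (4 libraries each, lettered A to D). The series set out to identify genes that stimulation induces and whose level depends on genotype. The labels give no time in culture for the unstimulated libraries. Changes with anti-IgM therefore mean stimulated against unstimulated libraries, and the part of 2 hours in culture was not tested. The labels do not say whether a letter is a separate mouse, so p-values measure only the spread between these libraries, which may be technical. Nr4a1 encodes the nuclear receptor Nur77; the labels give a homozygous knockout and name no Cre restricted to a cell type, so cells other than B cells may lack it too.

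RGS proteins bind the GTP-loaded alpha subunit of a heterotrimeric G protein and speed up GTP hydrolysis, which shortens the signal of the receptor upstream. In B cells the receptors concerned include those for chemokines, oxysterols and sphingosine 1-phosphate, which guide cells within and between lymphoid organs. Rgs1, Rgs2, Rgs16 and Rgs18 encode small proteins made of little more than the RGS domain, Rgs14 and Rgs3 encode larger proteins with further domains, and Rgs10 and Rgs19 encode short regulators that act mainly on the Gi class. RGS2 acts best on Gq, while RGS1 and RGS16 act on Gi and Gq.

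On mouse build GRCm38.p6 with RefSeq annotation, 4 of the 8 genes lie on chromosome 1. Rgs2 (143999338 to 144004149), Rgs1 (144244669 to 144249104) and Rgs18 (144752683 to 144775427), all on the minus strand, lie within 776 kb whose other protein-coding genes are Rgs13 and Rgs21. Rgs16 (153740353 to 153745468, plus strand) lies 8.96 Mb beyond Rgs18. The others are on separate chromosomes: Rgs19 on chromosome 2 (181688419 to 181694537, minus strand), Rgs3 on chromosome 4 (62559835 to 62703019, plus strand), Rgs10 on chromosome 7 (128373621 to 128419506, minus strand) and Rgs14 on chromosome 13 (55369732 to 55384687, plus strand).

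Rgs2 and Rgs16 are the chromosome 1 genes whose levels were higher after anti-IgM and whose promoter was in the sequence table used, so both promoters are shown, 5′ to 3′ on the gene's strand from 250 bases before to 50 bases after the RefSeq start site. They are chr1:144004100-144004399 (minus strand) and chr1:153740103-153740402 (plus strand) of GRCm38.p6. Capitals mark the 1 match to the searched motifs, an Egr site GCGNGGGCG read on the opposite strand, which begins 176 bases before the Rgs2 start site.
Rgs2: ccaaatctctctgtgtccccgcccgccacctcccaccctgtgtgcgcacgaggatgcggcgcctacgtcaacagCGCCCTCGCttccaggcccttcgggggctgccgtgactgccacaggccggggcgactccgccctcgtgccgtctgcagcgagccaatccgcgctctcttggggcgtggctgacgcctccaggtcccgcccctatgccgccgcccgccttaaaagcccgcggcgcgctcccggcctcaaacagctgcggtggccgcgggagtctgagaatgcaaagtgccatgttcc
Rgs16: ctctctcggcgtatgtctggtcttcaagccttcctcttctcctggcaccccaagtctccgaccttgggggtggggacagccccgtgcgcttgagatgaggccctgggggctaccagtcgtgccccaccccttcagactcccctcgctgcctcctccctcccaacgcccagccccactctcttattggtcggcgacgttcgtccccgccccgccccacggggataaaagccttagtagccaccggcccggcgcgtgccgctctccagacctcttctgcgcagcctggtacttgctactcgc

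The Rgs2 promoter has 70.0% GC and 33 CG pairs and that of Rgs16 has 66.0% GC and 22 CG pairs, beside medians of 61.0% and 21 over 9469 promoters of 7459 tested genes. On both strands, the Nr4a monomer site AAAGGTCA, the cAMP response element TGACGTCA, AP-1 TGANTCA, the CArG box, Egr GCGNGGGCG, NF-kB GGGNNTTCC and NFAT TTTCC were searched; TTTCC can lie inside a GGGNNTTCC match. Of all promoters, 0.993% held AAAGGTCA, 3.39% TGACGTCA, 4.6% TGANTCA, 1.19% a CArG box, 10.7% GCGNGGGCG, 7.78% GGGNNTTCC and 59.6% TTTCC. None of these motifs was in the Rgs16 or Rgs10 window. The other entries were 3 start sites of Rgs19, which held Egr, NF-kB and NFAT letters, and 2 of Rgs3, of which 1 held TTTCC. Rgs1, Rgs14 and Rgs18 had no entry.

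Values are FPKM, fragments scaled to transcript length and to the mapped fragments of the library, so levels of different genes can be set side by side. FPKM summed over all genes ran from 557214 to 571784 in the stimulated libraries, against 595500 in the knockout and 674961 in the wild-type library without stimulation. Absolute depth is unknown; relative depth, from 38 low genes, ran from 0.918 to 1.06. The targeted gene, Nr4a1, was at 126.43 and 125.58 FPKM in the unstimulated wild-type and knockout libraries, and at 744.23 to 856.1 and 660.23 to 759.96 FPKM after anti-IgM. The stimulated means, 808.1 and 702.1 FPKM, differed in the direction of the label (log2 difference -0.20, limma adjusted p 0.0432), but the libraries overlapped. A gene-level value does not show whether the transcript is intact, so groups are named as labelled. Of 8 B cell markers 8 passed the minimum level; with anti-IgM 6 fell and 2, Blk and Ebf1, rose at an adjusted p under 0.05 in limma, while the T cell gene Cd3e never passed 0.1 FPKM. In bulk RNA, fewer cells of a type and less RNA per cell cannot be told apart.

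Rgs19, Rgs1 and Rgs2 supplied most of the RGS transcript in every library. Without stimulation Rgs19 was the most abundant, at 63.25 (wild type) and 67.16 FPKM (knockout), or 36.4% and 42.9% of the summed level of the 8 genes. Rgs1 followed in wild type (50.26 FPKM) and then Rgs2 (33.01 FPKM), while in the knockout library Rgs2 (30.79 FPKM) and Rgs1 (30.14 FPKM) were nearly level. Rgs10, Rgs14, Rgs3, Rgs18 and Rgs16 came next in that order in both libraries, from 13.62 FPKM for wild-type Rgs10 down to 0.09 FPKM for wild-type Rgs16.

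After anti-IgM the order was different. Rgs1 (71.3 ± 6.89 FPKM, SD, n = 4) and Rgs2 (68.6 ± 4.26 FPKM, SD, n = 4) led in wild type, with overlapping ranges, ahead of Rgs19 (49.4 ± 1.38 FPKM, SD, n = 4). In the knockout group Rgs2 (55.3 ± 1.38 FPKM, SD, n = 4) and Rgs1 (52.4 ± 2.43 FPKM, SD, n = 4) also overlapped and again stood above Rgs19 (47.3 ± 1.89 FPKM, SD, n = 4). Rgs10 and Rgs3 held the fourth and the fifth place, and Rgs14, Rgs16 and Rgs18 came last at levels near 1 FPKM, each overlapping its neighbour in the order. The summed level of the 8 genes was 192.2 to 215.9 FPKM in the stimulated wild-type libraries and 168.0 to 173.3 FPKM in the knockout ones, against 173.8 and 156.4 FPKM unstimulated.

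**Figure D1:**
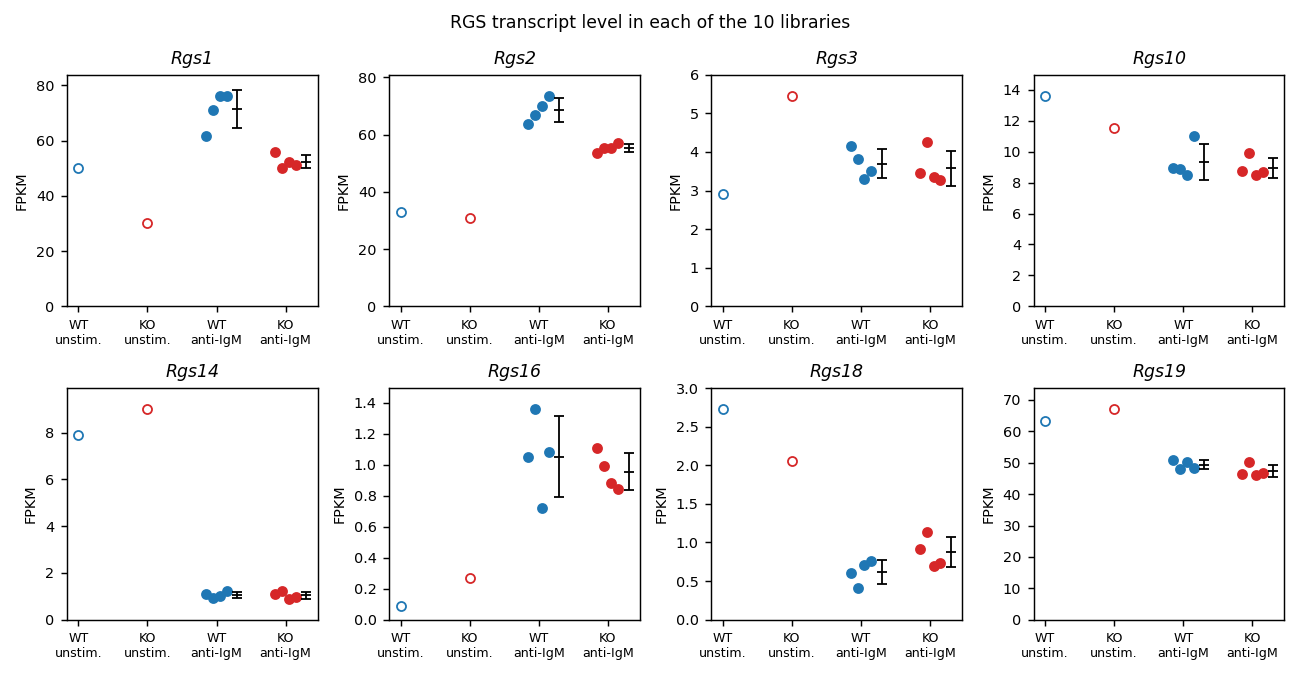
FPKM of each RGS gene (y axis, linear from 0, own scale per gene) in the 10 libraries, by group on the x axis; WT is wild type, KO is labelled knockout, open points are the single unstimulated libraries, filled points the stimulated libraries A to D, and bars the mean ± SD of 4. The stimulated wild-type libraries lie above all knockout ones for Rgs1 and Rgs2, and Rgs14 lies near 1 FPKM in all 8 stimulated libraries.

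With anti-IgM, Rgs14 had the largest fall on the log2 scale, and the counts of members that rose and fell were near those of all genes. Of the 8 genes, 7 averaged 1 FPKM or more across all libraries and entered the fit of stimulated against unstimulated libraries with genotype as a term (limma on log2(FPKM + 1), 8 libraries against 2, adjusted over 10225 genes). At an adjusted p under 0.05 in limma, 2 rose (Rgs1 and Rgs2), where 31.2% of all tested genes rose, and 4 fell (Rgs10, Rgs14, Rgs18 and Rgs19), where 47.7% of all tested genes fell. When the log2 change also had to reach 1 in size, only Rgs14 was called, as 1 gene lower beside 12.4% of tested genes, and none was called higher beside 7.94%. The median change of the 7 genes was -0.42 and that of all tested genes -0.17 on the log2 scale; after rescaling to the same sum, by median of ratios and by quantiles, the members' median was -0.26, -0.19 and -0.19, and that of all tested genes lay between -0.03 and 0.03. Over all tested genes 812 were called higher and 1266 lower, against 1102 and 1071 after rescaling each library to the same sum, 1155 and 801 by median of ratios, and 985 and 917 by quantiles.

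Rgs14, which carries 2 Ras-binding domains and a GoLoco motif in addition to its RGS domain, fell the most on the log2 scale. Unstimulated levels were 7.91 FPKM (wild type) and 9.02 FPKM (knockout). After anti-IgM it was 1.12, 0.93, 1.0 and 1.21 FPKM in wild-type libraries A to D, and 1.12, 1.21, 0.88 and 0.96 FPKM in knockout libraries A to D. All 8 stimulated libraries lay far below both unstimulated ones, and the genotypes overlapped. The unstimulated level was 7.43 times the stimulated mean in wild type and 8.65 times in the knockout group. The log2 change was -2.20 (SE 0.0935, limma adjusted p 2.52e-09). Rgs14 was lower in 20 of 20 alternative settings, between -2.90 (pseudocount 0.1) and -1.15 (pseudocount 5). Some settings keep the main log2 change, so they could not change this count. These are the settings without a filter, without the trend, with robust moderation and on the adjusted p alone.

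Rgs2 rose the most among the tested members. In wild type it stood at 33.01 FPKM unstimulated, and libraries A to D had 63.65, 66.98, 70.14 and 73.6 FPKM after anti-IgM. The knockout values were 30.79 FPKM unstimulated and 53.6, 55.42, 55.37 and 56.97 FPKM stimulated. Every stimulated library was above both unstimulated ones. The stimulated mean was 2.08 times the unstimulated level in wild type and 1.80 times in the knockout group, and the log2 change common to both was 0.93 (SE 0.0595, limma adjusted p 6.76e-08), just short of the size of 1. It passed that size when libraries were rescaled to the same sum (1.10) or by median of ratios (1.16), and without the unstimulated knockout library (1.03).

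Rgs1, a regulator abundant in activated and germinal centre B cells, had unstimulated levels of 50.26 FPKM (wild type) and 30.14 FPKM (knockout). With anti-IgM it was at 61.71, 71.0, 76.3 and 76.33 FPKM in wild-type libraries A to D. The stimulated knockout libraries had 55.79, 50.28, 52.35 and 51.07 FPKM. No stimulated library overlapped an unstimulated one, although the lowest stimulated knockout library (50.28 FPKM) was level with the unstimulated wild-type library. The stimulated mean was 1.42 times the unstimulated level in wild type and 1.74 times in the knockout group, with a common log2 change of 0.63 (SE 0.0844, limma adjusted p 3.22e-05).

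Rgs16, whose protein acts on Gi and Gq, was close to undetected without stimulation, at 0.09 FPKM (wild type) and 0.27 FPKM (knockout). After anti-IgM its levels were 1.05, 1.36, 0.72 and 1.08 FPKM in wild-type libraries A to D and 1.11, 0.99, 0.88 and 0.84 FPKM in knockout libraries A to D. The 8 stimulated libraries were all above both unstimulated ones, and the genotypes overlapped. Its mean over the 10 libraries, 0.839 FPKM, was under the minimum, so it was not in the fit. In the fit of all 17658 genes its log2 change was 0.76 (SE 0.111, limma adjusted p 0.000246).

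Rgs18, known best from platelets and megakaryocytes, was at 2.73 and 2.05 FPKM in the unstimulated wild-type and knockout libraries. With anti-IgM it was at 0.61, 0.41, 0.71 and 0.76 FPKM in wild-type libraries A to D and 0.92, 1.13, 0.7 and 0.74 FPKM in knockout libraries A to D. All stimulated libraries were below the unstimulated ones. The log2 change was -0.96 (SE 0.138, limma adjusted p 6.2e-05), and it reached 1 in size with a pseudocount of 0.1 (-1.58), after rescaling to the same sum (-1.04) and without the unstimulated knockout library (-1.21). It was smaller by quantiles (-0.60) and with a pseudocount of 5 (-0.36). The summed level of 10 platelet and megakaryocyte markers was also lower with anti-IgM. It was 29.94 and 15.24 FPKM in the unstimulated wild-type and knockout libraries. After anti-IgM it was 9.79 to 13.09 FPKM (wild type) and 5.09 to 8.97 FPKM (knockout). Of these 10 markers, 5 stayed under 1 FPKM in every library and none was at 0 in all of them; Pf4 was at 10.1 and 5.3 FPKM unstimulated and 0.92 to 4.33 FPKM stimulated. After anti-IgM the marker sums were lower under the knockout label, while the Rgs18 mean was higher (0.873 against 0.623 FPKM), with overlapping libraries. The part of platelets and megakaryocytes in the fall of Rgs18 was not tested.

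Rgs19 and Rgs10, the abundant and the intermediate Gi-directed regulators, fell by smaller amounts on the log2 scale. Rgs19 went from 63.25 and 67.16 FPKM to between 46.06 and 50.93 FPKM in the 8 stimulated libraries, none of which reached an unstimulated level (log2 change -0.42, SE 0.0478, limma adjusted p 8.19e-06). That change was -0.26 after rescaling to the same sum and -0.19 by median of ratios, with a limma adjusted p of 0.00548 and 0.0012. Rgs10 went from 13.62 and 11.51 FPKM to 8.93, 8.86, 8.46 and 11.01 FPKM in wild-type libraries A to D and 8.73, 9.91, 8.46 and 8.7 FPKM in knockout libraries A to D. Wild-type library D was the highest of the 8 and came close to the unstimulated knockout library. The Rgs10 change was -0.42 on the log2 scale (SE 0.0907, limma adjusted p 0.00125), but -0.20 (limma adjusted p 0.0531) with median-of-ratios scaling and -0.19 (limma adjusted p 0.088) with quantile normalization.

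Rgs3, a large multidomain regulator, did not pass the test of stimulation (log2 change -0.12, SE 0.149, limma adjusted p 0.47). Its unstimulated levels were 2.92 FPKM (wild type) and 5.46 FPKM (knockout). After anti-IgM they were 4.16, 3.83, 3.29 and 3.51 FPKM in wild-type libraries A to D and 3.46, 4.25, 3.34 and 3.28 FPKM in knockout libraries A to D. All stimulated libraries lay between the 2 unstimulated ones. The sign of this small change turned to 0.01, 0.06 and 0.30 after rescaling to the same sum, by median of ratios and by quantiles; without the unstimulated wild-type library it was -0.50 (limma adjusted p 0.007), and without the knockout one 0.26.

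**Figure D2:**
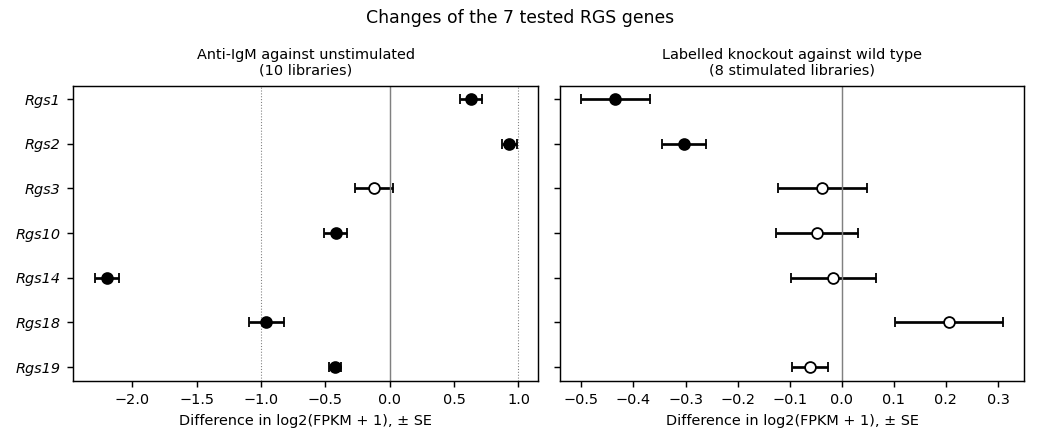
Difference in log2(FPKM + 1) on the x axis, ± SE, for the 7 tested RGS genes, with anti-IgM against unstimulated libraries on the left (dotted lines at -1 and 1) and libraries labelled knockout against wild type after anti-IgM on the right; filled points have an adjusted p under 0.05. Rgs1 and Rgs2 are higher with anti-IgM and lower under the knockout label, and Rgs14 has the largest fall with anti-IgM, -2.20.

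Between the genotypes after anti-IgM, Rgs1 and Rgs2 were lower in the libraries labelled knockout, and no other tested member passed. The 2 calls (limma over 4 and 4 libraries, adjusted p under 0.05) compare with 5.81% of tested genes called lower; none of the 7 was called higher, beside 3.91%. Scaling by median of ratios turned the counts over all genes from 400 higher and 594 lower to 559 and 377, and quantile normalization to 478 and 439; the 2 member calls stayed under both. The same 2 genes were the only members of the 8 whose stimulated wild-type and knockout libraries did not overlap, a pattern that 9.57% of tested genes had in the lower direction. The genotype comparison and the stimulation fit use the same 8 stimulated libraries.

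The stimulated knockout mean of Rgs1 was 73.4% of the wild-type mean, and the log2 difference was -0.43 (SE 0.0658, limma adjusted p 0.00285). For Rgs2 it was 80.7%, with a log2 difference of -0.30 (SE 0.0429, limma adjusted p 0.00189). In the libraries listed above, the lowest wild-type value exceeded the highest knockout value for both genes: 61.71 against 55.79 FPKM for Rgs1 and 63.65 against 56.97 FPKM for Rgs2. Both differences had an adjusted p under 0.05 in 20 of 20 alternatives, between -0.50 and -0.39 for Rgs1 and between -0.34 and -0.26 for Rgs2. The alternative that also asks for a 1.5-fold difference keeps the main adjusted p, so it could not change this count. Neither reached a 1.5-fold difference.

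Marker levels of other cells also differed by label in these libraries. The 11 T cell markers summed to between 53.46 and 57.74 FPKM (stimulated wild type) and between 75.01 and 78.11 FPKM (stimulated knockout), of which Lck made up 43.74 to 48.09 and 64.39 to 66.85 FPKM. The defining gene Cd3e was at 0 to 0.1 FPKM there, and 8 of the 11 stayed under 1 FPKM in all libraries. The exceptions besides Lck were Tcra and Cd5. Tcra was at 0.67 to 1.95 FPKM after anti-IgM, with overlapping genotypes. Cd5 was at 6.33 to 7.78 FPKM in stimulated wild type and 8.28 to 9.09 FPKM in stimulated knockout libraries. Stimulated sums lower under the knockout label, with no overlap, were those of NK markers (2.61 to 3.95 against 1.97 to 2.58 FPKM) and of the platelet markers given above. Of the 6 NK markers found, 4 stayed under 1 FPKM in every library. The mean of Klrd1 was 1.365 (wild type) and 0.575 FPKM (knockout), while Prf1 went the other way (1.24 and 1.38 FPKM). Plasma cell markers (1046 to 1111 against 1132 to 1191 FPKM) and follicular markers (291.3 to 314.7 against 323.4 to 332.9 FPKM) were higher under the knockout label. Sums of B cell, myeloid, dendritic, erythroid, germinal centre and marginal zone markers overlapped, although the B cell marker Cd79b was lower under the knockout label (379.5 ± 10.7 against 304.0 ± 14.9 FPKM, SD, n = 4; log2 difference -0.32, limma adjusted p 0.00054). The part of these cells in the Rgs1 and Rgs2 differences was not tested.

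No other member passed the test of genotype after stimulation. Rgs19 had 49.4 and 47.3 FPKM in wild type and knockout (log2 difference -0.06, limma adjusted p 0.341), Rgs10 9.32 and 8.95 FPKM (-0.05, adjusted p 0.782), Rgs3 3.70 and 3.58 FPKM (-0.04, adjusted p 0.848) and Rgs14 1.06 and 1.04 FPKM (-0.02, adjusted p 0.936). Rgs18 was the only tested member with a higher knockout mean, 0.873 ± 0.197 against 0.623 ± 0.155 FPKM (SD, n = 4), but the libraries overlapped (0.21, limma adjusted p 0.292). Rgs16, in the fit of all genes, gave -0.06 (limma adjusted p 0.793).

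In the single unstimulated pair, which has no replicate check, the Rgs1 level of the knockout library was 60.0% of that of the wild-type library, a log2 difference of -0.72, while that of Rgs2 was 93.3% (-0.10). Side by side with the stimulated means, 73.4% and 80.7%, the Rgs1 gap was thus present without anti-IgM and the Rgs2 gap was small there. The test of the difference in response gave 0.28 for Rgs1 (limma adjusted p 0.213) and -0.21 for Rgs2 (limma adjusted p 0.173), so neither response was shown to differ between genotypes. That fit takes the lone unstimulated libraries to vary like the stimulated ones.

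Rgs3 was the 1 member of 7 whose response differed, where 18.9% of all tested genes did in either direction. The log2 response was 0.26 in wild type and -0.50 in the knockout group, a difference of -0.76. It lay between -0.97 and -0.42 in the 17 alternatives with a value. The difference comes from the 2.92 and 5.46 FPKM of the single unstimulated libraries, since the stimulated means were nearly equal. No alternative with a value left out either of these libraries, so the alternatives could not test whether the difference depends on them.

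Among the other genes with an RGS domain or a close relation to the family, 17 of 22 names were in the table and 6 passed the minimum: Rgs13, Axin1, Akap10, Snx13, Snx14 and Snx25. None was called between genotypes. With anti-IgM, only Snx14, a sorting nexin with an RGS domain, was called, falling from 16.31 and 15.52 FPKM to between 5.18 and 6.33 FPKM (log2 change -1.32, SE 0.0729, limma adjusted p 1.97e-08). Axin1, a scaffold of the Wnt pathway's destruction complex, was at 19.22 and 24.86 FPKM unstimulated and 27.11 to 29.6 FPKM stimulated, and Snx13 at 14.19 and 11.85 FPKM and then 7.35 to 8.57 FPKM. Akap10 was at 15.3 and 15.66 FPKM unstimulated and 17.13 to 19.5 FPKM stimulated, and Snx25 at 20.61 and 23.46 FPKM and then 16.07 to 19.26 FPKM. On the adjusted p alone (limma, under 0.05), 2 of the 6 rose (Axin1 and Akap10) and 3 fell (Snx13, Snx14 and Snx25). Of all tested genes, 31.2% rose and 47.7% fell by that rule. In 10 of the 17, no library reached 1 FPKM.

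Rgs13, a germinal centre gene that lies between Rgs2 and Rgs1, was at 13.0 and 5.48 FPKM in the unstimulated wild-type and knockout libraries. After anti-IgM it was at 11.03, 15.89, 14.88 and 12.21 FPKM in wild-type libraries A to D and 8.34, 17.59, 9.95 and 9.66 FPKM in knockout libraries A to D. Knockout library B was the highest of all 10, and the other 3 stimulated knockout libraries were below all wild-type ones. The log2 difference was -0.27 (SE 0.201, limma adjusted p 0.488), and -0.48 (SE 0.12, limma adjusted p 0.0427) without knockout library B, an alternative chosen after its value was seen. The germinal centre gene Gcsam (2.48 FPKM) also had its highest stimulated knockout value in library B; the part of germinal centre cells was not tested.

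Of 13 listed neighbours of these genes on chromosome 1 other than the members, 7 were tested and none was called between genotypes (median log2 difference -0.02). With anti-IgM, at an adjusted p under 0.05 in limma, 3 rose and 2 fell, all by less than 1 on the log2 scale, beside 31.2% and 47.7% of all tested genes. Cdc73, a subunit of the transcription elongation complex PAF1, rose by 0.83, and Glul, glutamine synthetase, fell by 0.53.

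**Figure D3:**
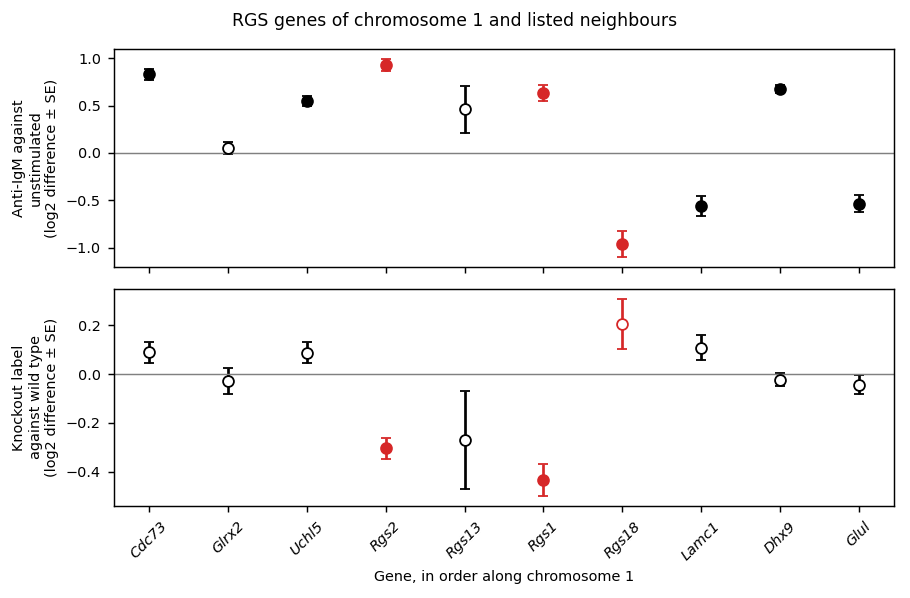
Tested genes of chromosome 1 around the RGS genes, evenly spaced in genome order on the x axis, with the difference in log2(FPKM + 1) ± SE on the y axis, for anti-IgM against unstimulated libraries (top) and knockout against wild-type labels after anti-IgM (bottom); RGS members are red, neighbours black, and filled points have an adjusted p under 0.05. Rgs2 and Rgs1 are the only filled points in the lower panel, at -0.30 and -0.43, and Rgs18 lies opposite to both in the upper panel.

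The coding and 3′ untranslated parts of the transcripts, from GENCODE M21, differ among the members; this comparison was added after the values were known. Rgs1 and Rgs2, with 209 and 211 codons, have 3′ untranslated regions of 3006 and 2342 bases with 10 and 5 copies of ATTTA, a pentamer found in many unstable transcripts. Rgs14, with 547 codons, has 552 bases and 0 copies, and Rgs10 has 275 bases and 0 copies. Rgs16, which was higher after anti-IgM, has 4 copies in 1613 bases. Rgs19, which fell, has 1 in 603 bases, and Rgs3 has 2 in 773 bases. Rgs18, which fell, has 5 copies in 1129 bases, as many as Rgs2, so the count does not sort all members by direction. Per kb, Rgs18 had the most copies (4.43), followed by Rgs1 (3.33), Rgs3 (2.59), Rgs16 (2.48), Rgs2 (2.13) and Rgs19 (1.66). The median over tested genes was 1.37 per kb. A link to transcript stability was not tested. Over 8539 tested genes the median was 1 copy in 1025 bases, and 20.9% had at least 5.

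Profiles over the 10 libraries were compared by Euclidean distance between centred log2 values, for the members with the largest changes. The nearest genes outside the family were Twsg1, B3gnt2 and Fam126a for Rgs2 (distances 0.172, 0.235 and 0.247), and Lrrk2, Pik3cg and Fcrla for Rgs14 (0.184, 0.210 and 0.230). Rgs1 had no neighbour as close: Gpr65, Rangrf and Zfp281 lay at 0.465, 0.471 and 0.490. Phf11a, Cklf and Pycard were nearest to Rgs18 (0.310, 0.312 and 0.315). Gpr65, a proton-sensing receptor, was like Rgs1 lower under the knockout label in both states, at 25.97 against 18.14 FPKM unstimulated and 35.2 ± 1.17 against 25.4 ± 1.87 FPKM stimulated (SD, n = 4). Pik3cg, the catalytic subunit of the phosphoinositide 3-kinase that beta-gamma subunits activate, went from 18.21 and 19.37 FPKM to between 3.14 and 4.1 FPKM.

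For the pathway lists, a gene called with anti-IgM passed an adjusted p of 0.05 in limma and changed by 1 or more on the log2 scale, which 7.94% of all tested genes had as a rise and 12.4% as a fall. Between genotypes the adjusted p alone was used, with 3.91% of tested genes higher and 5.81% lower. Among the G protein subunits on which RGS proteins act, 1 of 7 tested alpha subunits was called with anti-IgM. This was Gnai2, the main Gi alpha subunit of lymphocytes, which fell from 146.79 and 202.45 FPKM to between 63.87 and 77.67 FPKM (log2 change -1.27, SE 0.0887, limma adjusted p 1.37e-07). Gna13, an alpha subunit of the G12/13 class, was at 44.59 and 55.53 FPKM unstimulated and 78.51 to 91.19 FPKM stimulated, a log2 change of 0.76 that was under the size of 1. No alpha subunit was called between genotypes. Of 10 beta and gamma subunits, 1 was called higher and 3 lower (3 and 6 on the adjusted p alone): Gng4 had a log2 change of 2.76, Gng2 of -2.29, Gngt2 of -1.46 and Gng11 of -1.37. Gng4 was also called between genotypes, at 18.7 ± 1.19 FPKM (wild type) and 25.2 ± 2.28 FPKM (knockout) (SD, n = 4; log2 difference 0.41, limma adjusted p 0.00403).

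Among other proteins that tune G protein signals, of 13 tested modulators, 6 were called lower with anti-IgM and none higher (9 and 1 on the adjusted p alone). The log2 change was -1.85 for Gpsm3, a GoLoco protein that binds Gi, -1.64 for Adrbk1, which encodes the receptor kinase GRK2, and -1.21 and -1.18 for the arrestins Arrb2 and Arrb1. Under median-of-ratios scaling, counted by list after the data were seen, 2 of these 6 stayed called, and none was called between genotypes.

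Receptors went both ways. Of 20 tested receptors, 5 were called higher with anti-IgM and 6 lower (9 and 10 on the adjusted p alone). The higher ones included S1pr3 (log2 change 2.50), Gpr183 (1.82), Ptger4 (1.71) and Ccr9 (1.51). The lower ones included P2ry10 (-2.76), S1pr4 (-2.62) and Lpar6 (-1.69). Between genotypes 5 were higher and 6 lower under the knockout label. By median of ratios S1pr1 was no longer called with anti-IgM and Ccr7 no longer between genotypes, and by quantiles Gpr183 no longer between genotypes. Cxcr4, the receptor for CXCL12, was at 729.2 ± 20.8 FPKM (wild type) and 486.7 ± 14.5 FPKM (knockout) (SD, n = 4; log2 difference -0.58, limma adjusted p 5.55e-06). Ptger4, a prostaglandin E2 receptor coupled to Gs, differed by -0.72, Ccr6 by -0.62 and Gpr65 by -0.46, while S1pr3, Gpr132, Gpr18 and Cnr2 were higher by 0.52, 0.30, 0.25 and 0.21.

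Downstream, 3 of 10 tested effectors were called lower with anti-IgM and none higher (7 and 2 on the adjusted p alone). They were Pik3cg (-2.11), the adenylyl cyclase Adcy7 (-1.72) and the Rac exchange factor Prex1 (-1.18, not called under median-of-ratios or quantile scaling). Pik3r5, the regulatory partner of Pik3cg, was lower under the knockout label, at 3.45 ± 0.323 against 6.21 ± 0.4 FPKM (SD, n = 4; log2 difference -0.70, limma adjusted p 0.000214), and Elmo1 was higher by 0.18. Of 12 genes of the cAMP response, 1 was called lower with anti-IgM, the phosphodiesterase Pde4b (-1.39), and none higher (8 and 3 on the adjusted p alone), and 4 were higher under the knockout label: Pde4a by 0.37, Crtc2 by 0.14, Creb1 by 0.12 and Atf1 by 0.10. Crtc2 was not called after rescaling to the same sum.

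**Figure D4:**
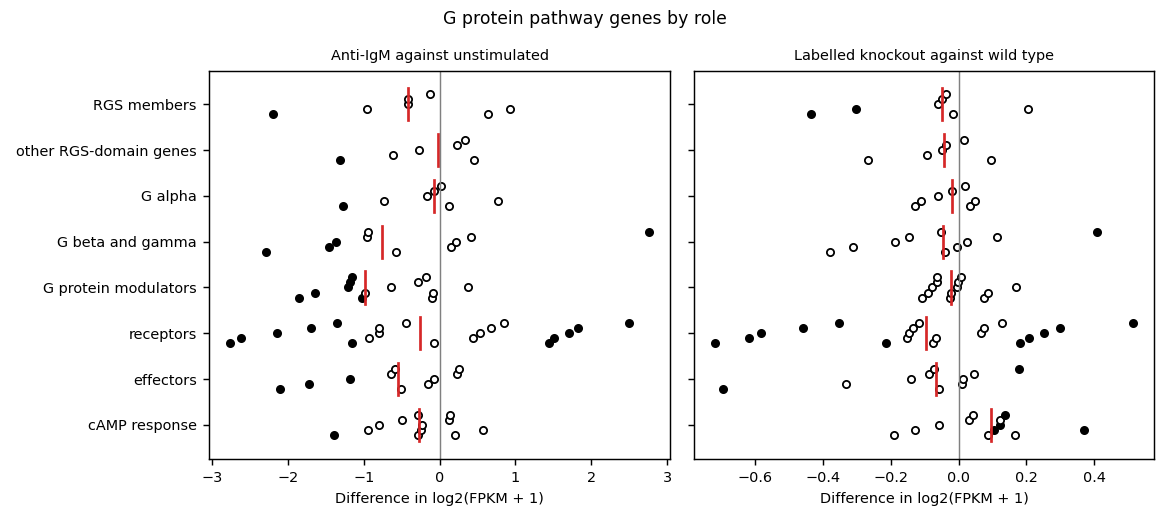
Difference in log2(FPKM + 1) of each tested gene (points) by role in G protein signalling (y axis), for anti-IgM against unstimulated libraries (left) and knockout against wild-type labels after anti-IgM (right); filled points were called, the red line is the median of a list, and vertical offsets only separate points. The left panel spreads from -2.76 (P2ry10) to 2.76 (Gng4) and the right panel from -0.72 (Ptger4) to 0.52 (S1pr3).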

How the data were processed

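The authors deposited 1 table of FPKM per gene in 10 libraries. Per the submitters' processing notes, STAR 2.4, RSEM 1.2.14 and build mm10 were used; the gene annotation, any filter and whether strand was used are not given in the sources used here. Per the labels' protocols, the kit was a stranded mRNA kit. From the deposited FPKM, log2(FPKM + 1) was computed, which understates changes near 1 FPKM, and the 10225 genes averaging 1 FPKM or more were fitted with limma 3.58.1 in R 4.3.3 (lmFit, eBayes with trend, two-sided, Benjamini-Hochberg over all tested genes). Genotypes were compared over 8 stimulated libraries, stimulation over 10 with genotype as a term (called also at a log2 change of at least 1), and the difference in response over 4 group means. The scripts were tested on simulated data. The members and gene lists were chosen with earlier results of these data known. Named genes are the members, tested relatives with an RGS domain, up to 4 called genes each way per pathway list, Nr4a1, and the 3 nearest profiles of 4 members. Neighbours and markers named besides these were chosen after their values were seen. They are Cdc73, Glul, Gna13, Cd3e, Tcra, Cd5, Lck, Klrd1, Prf1, Pf4, Blk, Ebf1, Cd79b, S1pr1, Ccr7, Gcsam and the myeloid markers. Promoters came from RefSeq (GRCm38.p6). Protein sequences were not analysed here, and a few genes within that rule are not reported here. The alternatives were pseudocounts, filters, scalings, moderation, a block and leaving out each library; calls per gene list under other scalings, and leaving out libraries for Rgs13, were added after seeing the data. No 2 libraries shared more than 0.968% of values.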

Additional observations from a re-analysis of the deposited data

Results flagged for a closer look

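Of 96 groups of 4 stimulated libraries examined, 1 for each genotype and each member or named gene, 5 held a library that stood apart from the other 3 by a gap test, about the number that chance gives at 1 in 20. Rgs19 was at 50.14 FPKM in knockout library B and at 46.06 to 46.74 FPKM in the others. Gng11 was at 2.75 FPKM in wild-type library A against 1.47 to 1.63 FPKM. Ccr6 was at 41.7 FPKM in knockout library D against 46.1 to 46.88 FPKM. Pde4a was at 1.18 FPKM in wild-type library D against 0.84 to 0.86 FPKM. Axin1 was at 29.6 FPKM in wild-type library A against 27.11 to 27.3 FPKM. The response of Rgs3 to anti-IgM differed between the genotypes by -0.76 on the log2 scale (knockout minus wild type, limma adjusted p 0.0241), with 1 unstimulated library on each side.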

How the results depend on the processing

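No member was called between genotypes when a difference of at least 1.5-fold was also required (0 lower, from 2). With anti-IgM, the members called higher went from 0 to 1 after rescaling to the same sum, after median-of-ratios scaling and without the unstimulated knockout library, and to 2 on the adjusted p alone. Those called lower went from 1 to 2 with a pseudocount of 0.1, after rescaling and without the unstimulated knockout library, to 4 on the adjusted p alone, and to 0 with a mean of at least 5 FPKM, which leaves Rgs14 untested. Leaving out single libraries gave 0 to 1 higher and 1 to 2 lower. Members whose response differed went from 1 to 3 after rescaling, with Rgs2 and Rgs19 added, and to 0 at 5 FPKM, which leaves Rgs3 untested.

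Reversed signs were seen in differences that had not passed the test. The genotype difference of Rgs14 was 0.0049 by median of ratios, 0.0338 by quantiles and -0.0556 to 0.0221 leaving out single libraries. That of Rgs10 was -0.0929 to 0.0274 leaving out single libraries, positive only without wild-type library D. That of Rgs3 was 0.0196 by quantiles and -0.104 to 0.00912 leaving out single libraries, positive only without wild-type library A. The Rgs3 response to anti-IgM was 0.00927 after rescaling, 0.064 by median of ratios, 0.297 by quantiles and -0.50 to 0.258 leaving out single libraries.

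The library letter as a replicate block changed no member's call: 2 members stayed lower between genotypes (Rgs1 limma adjusted p 0.0167), 1 was lower with anti-IgM and 1 differed in response. Deviations of same-lettered libraries of the 2 genotypes correlated at -0.12 to 0.04, and those of differently lettered ones at -0.09 to 0.12. With means of only 4 libraries, these correlations cannot show whether a shared letter stands for anything shared. Of the myeloid markers, Lyz2, Cd14, Itgam, Emr1 and Cybb were highest in library B of both stimulated groups. Csf1r, Mpeg1, S100a8, S100a9 and Fcgr1 were not. Lyz2 was at 114.95 (wild type) and 82.57 FPKM (knockout) in B, against 26.59 to 31.91 and 15.81 to 52.96 FPKM in the other letters. What a letter shares was not tested. Over all tested genes, those whose response was lower in the knockout went from 1504 to 3455 after rescaling, 849 by median of ratios and 950 with the block; the cause was not tested. Absolute depth is unknown, so counting error at low FPKM (Rgs16, Rgs18) is not given.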
